A study of Mus musculus with 64 samples.

Results

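The livers described here carry a lowered level of Acsf3, whose product activates malonate to malonyl-CoA in mitochondria, and were compared between the later part of the dark phase and the later part of the light phase. The 16 libraries were chosen by their labels alone: the treatment sh-Acsf3 at zeitgeber times ZT18 and ZT21 (late dark, 8 libraries) and at ZT6 and ZT9 (late light, 8 libraries), out of 64 in the series. All came from male C57BL/6J mice that ate ad libitum and had received AAV8, a virus that takes genes to the liver, with a hairpin RNA against Acsf3 4 weeks earlier. The 16 sh-Ctl libraries of the same 4 times, from mice given AAV8 with a control hairpin, served for comparison. Each treatment and time has replicates 1 to 4. The labels do not give the promoter of the vector, nor do they say whether each library is 1 mouse, so the p-values measure the spread between these libraries. The tissue was frozen whole liver, and the reads were 3′ tags counted once per molecule (UMIs).

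Zeitgeber time counts hours from lights on, and mice eat mainly in the dark. The liver clock is a loop of transcription: BMAL1 (gene Arntl) and CLOCK bind E-boxes and switch on Per, Cry, Nr1d1 and Nr1d2, whose products then repress, with REV-ERB proteins (Nr1d1, Nr1d2) and ROR proteins acting in opposition on genes such as Arntl, Cry1 and Nfil3. Feeding sets a second daily program in the same cells, in which insulin and nutrients favour glucose use, glycogen and fat synthesis, and fasting favours glucose output and fat oxidation.

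The libraries held 0.839 to 7.24 M UMIs in late dark (median 1.62) and 1.44 to 8.01 M in late light (median 3.16), so late dark was the shallower window. Between 11824 and 16129 genes were detected per library, and mitochondrial transcripts took 16.8 to 25.0% of the counts. Acsf3 itself ran from 0 to 7.22 CPM (UMIs scaled to a common library total, with TMM) in late dark with a median of 2.64, and from 0.300 to 3.65 CPM in late light with a median of 1.63. In sh-Ctl the corresponding values were 6.25 to 13.2 CPM (median 9.08) and 9.52 to 14.9 CPM (median 11.6), so the lowest sh-Ctl library of late dark lay below the highest sh-Acsf3 library of that window, while in late light the treatments did not overlap. In sh-Acsf3 these values rest on 58 and 50 UMIs in all, too few for the gene to be tested between windows. The library of ZT21 replicate 2 was the shallowest and held 8567 CPM of exocrine pancreas markers and 27.7 CPM of adipose markers. ZT9 replicate 3 held 209.8 CPM of pancreas markers, against 6.62 to 19.7 in the other 14. The counts without these 2 libraries are given beside each list whose counts they change, and their part in a result, like that of depth, was otherwise not tested.

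Late dark and late light differed in 615 of 8738 genes tested (edgeR quasi-likelihood, adjusted p under 0.05), with 307 higher in late dark, 3.51% of those tested, and 308 lower, 3.52%. All differences below are log2 of late dark minus late light, the mean of ZT18 and ZT21 against the mean of ZT6 and ZT9, with the SE. Most were modest in size. The median was 0.59 among the rises and -0.61 among the falls, and 55 rises and 37 falls were at least 2-fold, of which 5 and 5 were at least 4-fold. All 8 late dark libraries lay above all 8 late light libraries for 29 genes (0.332% of those tested) and below them for 68 (0.778%), and 27 and 62 of these passed the test. When libraries were scaled by their totals and not by TMM, the split was 163 higher and 492 lower, and the median over all genes tested was -0.0852 in place of 0.0038. Without the 2 libraries with pancreas RNA it was 177 and 198, and 355 of those 375 genes were among the 615. Of the 117 genes named by rule with a call, 52 passed in all 32 alternative settings tried (31 for Trib3) and 84 without each single library in turn. The settings without ZT21 replicate 2 and without the shallowest library are the same fit, counted as separate settings. The calls of Abcc2, Acacb, Akr1c6, Bgn, Clec4g, Ebp, Egr1, Fads1, Fbp1, Gbe1, Gpi1, Manf, Mvd, Nags, Ndufb10, Nolc1, Nop16, Oaz1, Pck1, Psma5, Ptprb, Rpl3, Rps3a1 and Sox9, given below, ended without at least 1 single library. In a fit without a mean per time those of Bgn, Coq10b, Creld2, Ebp, Elovl5, Hspa5, Manf, Nop16, Per2, Sox9 and Tsku ended.

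Seen over all 8 times of sh-Acsf3, the rises and falls peaked at different hours. Of the 307 genes higher in late dark, 113 had their highest mean at ZT18, 93 at ZT21 and 51 at ZT15, with 27 at ZT0 and 18 at ZT3. Among the 308 lower genes 203 peaked at ZT9 and 58 at ZT6, with 25 at ZT12 and 19 at ZT3. The windows were part of how these genes were called, so the peaks at ZT6, ZT9, ZT18 and ZT21 are a description only.

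The largest differences in either direction were in the clock. Of the 19 clock genes tested in the 3 lists of activators, repressors and output factors, 5 rose in late dark and 3 fell. Of all genes tested 3.51% rose and 3.52% fell. The activator genes come first. Arntl (ENSMUSG00000055116, chr7:113207465-113314126, plus strand, GRCm38), which encodes BMAL1, had a lowest, median and highest value of 0, 2.22 and 6.29 CPM in late light and 5.47, 12.7 and 15.0 CPM in late dark. Only ZT18 replicate 3 in late dark fell inside the range of late light, and only ZT6 replicate 2 of late light inside that of late dark. Arntl rose by 2.41 ± 0.24 (adjusted p = 2.82e-07). Clock, the partner of BMAL1, differed by 0.33 ± 0.15 (adjusted p = 0.201) and Rora by 0.06, and neither passed. In bulk liver, fewer cells of a type and less RNA per cell cannot be told apart, here and in all that follows.

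Among the repressors the REV-ERB genes fell and Cry1 and Per2 rose. Nr1d1 (ENSMUSG00000020889, chr11:98767932-98775333, minus strand), which encodes REV-ERBα, had a lowest, median and highest value of 16.4, 26.9 and 45.1 CPM in late light and 0.440, 1.36 and 4.38 CPM in late dark. This fall of 4.38 ± 0.33 (adjusted p = 3.55e-08) was the largest of all genes tested, and no late dark library came near any of late light. Nr1d2, its paralog REV-ERBβ, ran from 21.0 to 54.0 CPM in late light (median 35.2) and 4.21 to 12.7 CPM in late dark (median 8.84), again with no overlap, and fell by 2.10 ± 0.16 (adjusted p = 5.55e-09). Cry1 (ENSMUSG00000020038, chr10:85131700-85185064, minus strand), a late-phase repressor of CLOCK and BMAL1, stood at 1.36, 2.28 and 4.24 CPM in late light and 10.9, 14.5 and 20.9 CPM in late dark. Its windows did not overlap, and its rise of 2.41 ± 0.20 (adjusted p = 1e-08) was, just above that of Arntl, the largest of all genes tested. Per2, the Cry partner, was spread more widely, from 1.502 to 17.8 CPM in late light (median 5.69) and 7.40 to 34.1 CPM in late dark (median 14.0). The ZT9 replicates 1 and 2 reached into the late dark range, and the means were 3.26 ± 1.92 CPM at ZT6, 10.7 ± 5.54 at ZT9, 19.6 ± 9.77 at ZT18 and 12.3 ± 4.87 at ZT21 (SD, n = 4 each). Per2 rose by 1.53 ± 0.33 (adjusted p = 0.00904), and this call ended when the 2 times of a window were not given means of their own (adjusted p = 0.0937).

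The remaining repressors did not pass between windows in edgeR, though some passed in other settings. Per1 differed by -0.85 ± 0.31 (adjusted p = 0.0975), Per3 by -0.95 ± 0.29 (adjusted p = 0.0522) and Ciart, a repressor also called CHRONO, by -1.44 ± 0.53 (adjusted p = 0.107). For Per1 and Ciart all 8 late dark libraries lay inside the range of late light, in which the 4 libraries of ZT6 were low and those of ZT9 reached highest. By DESeq2 Per3 and Ciart passed, with Per3 at -0.99 (adjusted p = 0.0265) and Ciart at -1.54 (adjusted p = 0.0179), and Per3 passed in 11 of 32 alternatives and Ciart in 6. Without ZT6 replicate 3, ZT9 replicate 3 or ZT18 replicate 1 the edgeR adjusted p of Per3 was 0.0397, 0.00786 or 0.0377. That of Ciart was 0.0468 without ZT9 replicate 4, and that of Per1 was 0.0427 without ZT6 replicate 3. Leaving out both libraries with pancreas RNA gave 2 rises and 3 falls among the repressors, with Per3 among the falls (adjusted p = 0.0106). Bhlhe40, an E-box competitor, differed by -0.46 ± 0.16 (adjusted p = 0.0852, or 0.0405 and 0.0397 without ZT6 replicate 2 and ZT9 replicate 1), Cry2 by 0.21, and the kinase genes Csnk1d and Csnk1e by 0.02 and -0.05. Dbp (ENSMUSG00000059824, chr7:45705088-45710203, plus strand), the E-box-driven activator of the D-box output genes, stood at 27.9, 103 and 225 CPM in late light and 1.94, 8.87 and 17.3 CPM in late dark and fell by 3.57 ± 0.27 (adjusted p = 5.08e-07) with no overlap. Nfil3, the repressor that competes with DBP at the D-box, ran from 4.59 to 10.9 CPM in late light (median 7.49) and 8.76 to 23.6 CPM in late dark (median 16.8) and rose by 1.14 ± 0.17 (adjusted p = 0.000113). ZT18 replicate 3 and ZT21 replicate 4 of Nfil3 reached into the late light range. The related factors Tef and Hlf differed by -0.22 ± 0.20 and -0.03, and neither passed.

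**Figure D1:**
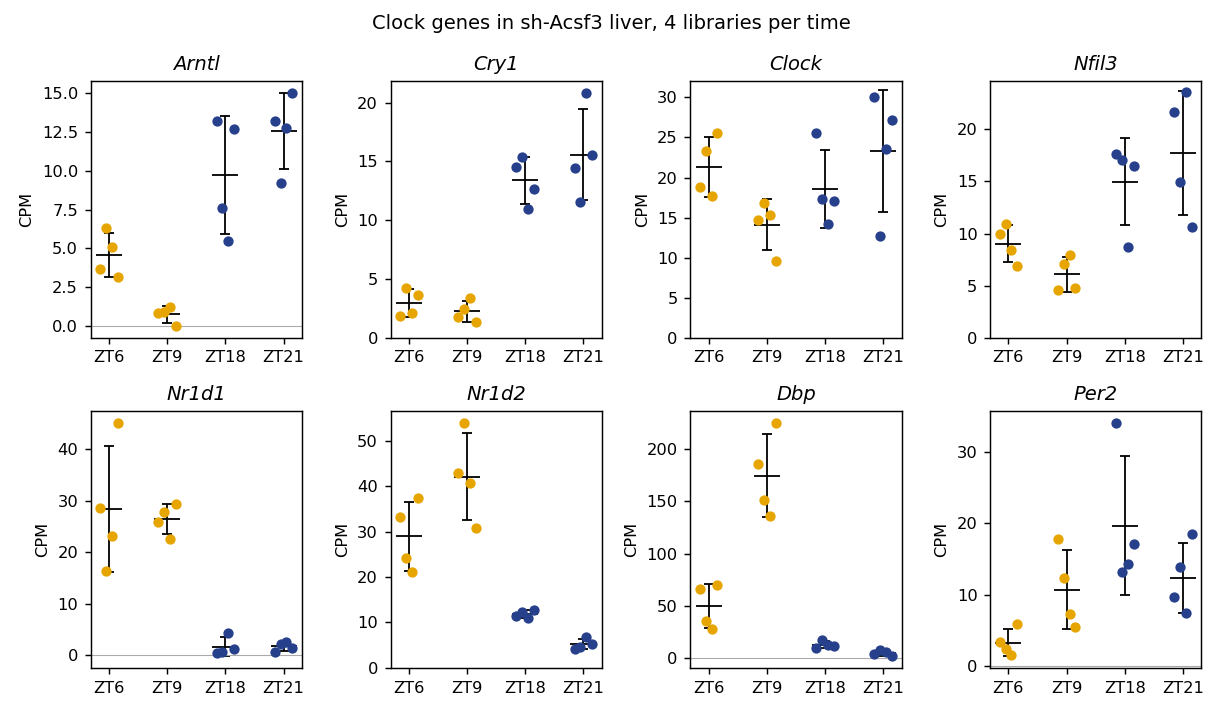
CPM of 8 clock genes (one panel each, y axis in CPM from 0) in every sh-Acsf3 library at ZT6, ZT9 (late light, yellow) and ZT18, ZT21 (late dark, blue), with bars for the mean ± SD of 4 libraries. Cry1 lies above late light in all 8 late dark libraries, and Nr1d1, Nr1d2 and Dbp lie below it in all 8.

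The E-box CACGTG, the site of CLOCK and BMAL1, was looked for in the RefSeq promoter windows (250 bases before to 50 after each gene start, GRCm38.p6, both strands; the motif is its own reverse complement). Of the 19 tested clock genes 15 had a window, and 4 of these (26.7%: Cry1, Ciart, Per1 and Tef) held it, against 8.09% of all 27025 genes with a window and 12.1% of the 6978 tested genes with one. Among the genes called, 14.7% of those higher and 16.7% of those lower held it. The stretches of 3 repressor genes around the match are shown because these genes share the motif while their values over the 4 times differ, with Cry1 high in late dark and Per1 and Ciart highest at ZT9 (14.4 ± 7.51 and 19.0 ± 15.1 CPM, SD, n = 4 each). They were chosen after the matches were seen, run 5′ to 3′ on the strand of the gene, and have the E-box in capitals. The Cry1 stretch is chr10:85185065-85185164 (minus strand), that of Ciart chr3:95882259-95882378 (minus) and that of Per1 chr11:69098749-69098818 (plus), in bases before the start.
Cry1: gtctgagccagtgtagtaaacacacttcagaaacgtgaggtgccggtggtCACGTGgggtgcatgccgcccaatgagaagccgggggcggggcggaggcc
Ciart: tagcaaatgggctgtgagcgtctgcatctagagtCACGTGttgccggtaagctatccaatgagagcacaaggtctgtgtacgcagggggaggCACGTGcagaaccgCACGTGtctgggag
Per1: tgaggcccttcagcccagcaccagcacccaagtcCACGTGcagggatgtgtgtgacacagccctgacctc
The stretches hold 1, 3 and 1 matches. The ROR element core TAGGTCA was in the windows of Nfil3 and Arntl, 2 of the 15, against 2.97% of all genes with a window. A match describes the letters and shows no binding.

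Genes under clock control had more rises than falls. Of 22 tested in the list of clock outputs, 9 were higher and 2 lower in late dark, beside 3.51% and 3.52% of all genes. The median was 0.40 against 0.0038 over all genes, and without the 2 libraries with pancreas RNA the counts were 9 and 1. The coumarin hydroxylase gene Cyp2a5 ran from 123 to 387 CPM in late light (median 233) and 383 to 831 CPM in late dark (median 525) and rose by 1.23 ± 0.13 (adjusted p = 3e-06). Tspan4, a tetraspanin gene, rose by 1.29 ± 0.17, and Slc45a3, which encodes a sugar transporter of the solute carrier family, by 1.22 ± 0.21. Cdkn1a, the gene of the cell cycle inhibitor p21, rose by 1.96 ± 0.36 (adjusted p = 0.0018), from 0 to 5.52 CPM in late light (median 1.97) and 3.73 to 18.4 CPM in late dark (median 9.97). Its highest value was in ZT21 replicate 2, and 3 of the 4 ZT18 libraries lay inside the late light range. Coq10b, for a coenzyme Q binding protein, fell by 0.93 ± 0.18 (adjusted p = 0.00176). Its means were 12.8 ± 3.27 CPM at ZT6, 38.7 ± 5.202 at ZT9, 14.3 ± 2.31 at ZT18 and 8.47 ± 5.49 at ZT21 (SD, n = 4 each), so ZT9 alone stood above both times of late dark, and the call ended without a mean per time (adjusted p = 0.126). Nampt, whose enzyme limits NAD salvage, rose by 0.73, and Rgs16, a G protein regulator, fell by 2.46, both named after their values were seen.

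Beyond the clock, genes with large rises included some of glycogen, glucose and lipid handling. Ppp1r3b (ENSMUSG00000046794, chr8:35375739-35388139, plus strand), whose product brings protein phosphatase 1 to liver glycogen, had a lowest, median and highest value of 13.5, 27.3 and 36.1 CPM in late light and 35.7, 127 and 177 CPM in late dark. The low late dark value was that of ZT21 replicate 3, and the other 7 lay above every late light library. Ppp1r3b rose by 2.24 ± 0.30 (adjusted p = 0.000563). Thrsp, a regulator of fat synthesis, stood at 48.3, 148 and 238 CPM in late light and 354, 452 and 1012 CPM in late dark, without overlap, and rose by 1.91 ± 0.31 (adjusted p = 0.00229). Chka, which encodes choline kinase of the phosphatidylcholine pathway, ran from 7.36 to 23.2 CPM in late light (median 15.7) and 29.6 to 87.6 CPM in late dark (median 69.7), again with no overlap, and rose by 2.16 ± 0.20 (adjusted p = 8.17e-07). Nat8f5, a member of the N-acetyltransferase 8 family whose members are close in sequence and can share reads, rose by 2.11 ± 0.24 (adjusted p = 4.48e-05), from 6.14 to 38.7 CPM in late light (median 15.0) and 50.3 to 103 CPM in late dark (median 75.6).

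In glycolysis and fructose use 4 of 17 genes tested rose and 0 fell, beside 3.51% and 3.52% of all genes, with a median of 0.30. They included Pfkfb1, the liver enzyme that makes and breaks fructose 2,6-bisphosphate, with a rise of 1.15 ± 0.17, Khk, the ketohexokinase that phosphorylates fructose, with 0.47 ± 0.12, and Gpi1, glucose phosphate isomerase, with 0.50 ± 0.14. Gpi1 passed in 17 of 32 alternatives. Without the 2 libraries with pancreas RNA 2 rose and 1 fell, and with libraries scaled by their totals only the counts were also 2 and 1. The glycogen list had 2 of 14 higher, Ppp1r3b and the branching enzyme gene Gbe1 (0.35 ± 0.10, passing in 14 of 32 alternatives).

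For gluconeogenesis and fasting 2 of 18 were higher and 2 lower, beside 3.51% and 3.52% of all genes, with a median of -0.04. Pck1, whose enzyme PEPCK commits carbon to gluconeogenesis, had a lowest, median and highest value of 526, 925 and 1920.3 CPM in late light and 182, 327 and 922 CPM in late dark. ZT21 replicate 3 was the late dark library that reached into the late light range, and ZT9 replicate 4 was the highest of all. Pck1 fell by 1.45 ± 0.36 (adjusted p = 0.0328), a call that passed in 16 of 32 alternatives and ended without any one of 10 libraries. Sds, the serine dehydratase gene, fell by 0.69 ± 0.15 (adjusted p = 0.00753). Slc37a4, the glucose 6-phosphate transporter gene, and Fbp1, fructose bisphosphatase, rose by 0.44 ± 0.11 and 0.30 ± 0.08, so with TMM the list moved in both directions. Leaving out the libraries with pancreas RNA, 1 rose and 1 fell. With libraries scaled by their totals only, 0 rose and 2 fell, and neither Slc37a4 nor Fbp1 passed.

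In fat synthesis and desaturation 4 of 21 genes rose and 1 fell, with 17 of 21 above 0 and a median of 0.37. Of all 8738 genes tested 3.51% rose and 3.52% fell, and 4426 were above 0. Without the 2 libraries with pancreas RNA 2 rose. Agpat2, an acyltransferase of triglyceride and phospholipid synthesis, rose by 0.76 ± 0.12 (adjusted p = 0.000267), and Fads1, the delta-5 desaturase, by 0.37 ± 0.09 (adjusted p = 0.0165). The Fads1 call ended without ZT21 replicate 1 (0.33, adjusted p = 0.0557). Acacb, the acetyl-CoA carboxylase that makes malonyl-CoA at the outer face of mitochondria, ran from 4.91 to 22.8 CPM in late light (median 10.0) and 7.66 to 41.2 CPM in late dark (median 24.8). Only 2 late dark libraries, ZT18 replicates 1 and 3, lay inside the late light range, but 6 late light libraries lay above the lowest late dark one. Acacb rose by 1.24 ± 0.33 (adjusted p = 0.0394), and this passed in only 12 of 32 alternatives. Elovl5, an elongase of polyunsaturated fatty acids, fell by 0.52 ± 0.12 (adjusted p = 0.00886).

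Cholesterol synthesis had 3 of 19 genes higher and none lower, beside 3.51% and 3.52% of all genes, and a median of 0.30. Pmvk and Mvd, successive enzymes of the mevalonate pathway, rose by 0.93 ± 0.18 and 1.02 ± 0.28, and Ebp, a sterol isomerase, by 0.30 ± 0.09, with Mvd passing in 19 and Ebp in 11 of 32 alternatives. The count was 1 with library size only and 1 without the libraries with pancreas RNA. Of 14 genes of sterol uptake and export 3 fell. Abcg8, one chain of the transporter that moves sterols into bile, fell by 1.14 ± 0.14 (adjusted p = 9.2e-06), from 22.2 to 68.9 CPM in late light (median 36.1) and 12.0 to 24.2 CPM in late dark (median 17.4). Npc1, which moves cholesterol out of lysosomes, fell by 0.65 ± 0.13, and Scap, the escort of SREBP, by 0.44 ± 0.11.

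In fat oxidation, of 19 tested 2 fell, beside 3.52% of all genes, none rose, and 12 of the 19 were above 0. Cpt1a, the malonyl-CoA-inhibited gate of fatty acids into mitochondria, had a lowest, median and highest value of 101, 184 and 233 CPM in late light and 77.2, 104 and 135 CPM in late dark. It fell by 0.70 ± 0.12 (adjusted p = 0.000437), with ZT6 replicate 1 well below the other late light libraries. Etfdh, which passes electrons from fat oxidation to coenzyme Q, fell by 0.48 ± 0.11 (adjusted p = 0.00465). Crot, the peroxisomal carnitine octanoyltransferase gene, stood at 382, 529 and 823 CPM in late light and 126, 201 and 360.3 CPM in late dark, with no overlap, and fell by 1.37 ± 0.15 (adjusted p = 8.32e-06). Among the 23 PPARα targets tested 2 fell, Cpt1a and the lipid droplet gene Plin2 (-0.49 ± 0.13), with a median of -0.24 against 0.0038 over all genes. Without the 2 libraries with pancreas RNA 1 fell, the median was -0.14, and Plin2 did not pass (-0.38, adjusted p = 0.0752). Of 6 ketone body genes Bdh1, the hydroxybutyrate dehydrogenase, fell by 0.63 ± 0.12 (adjusted p = 0.00176).

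**Figure D2:**
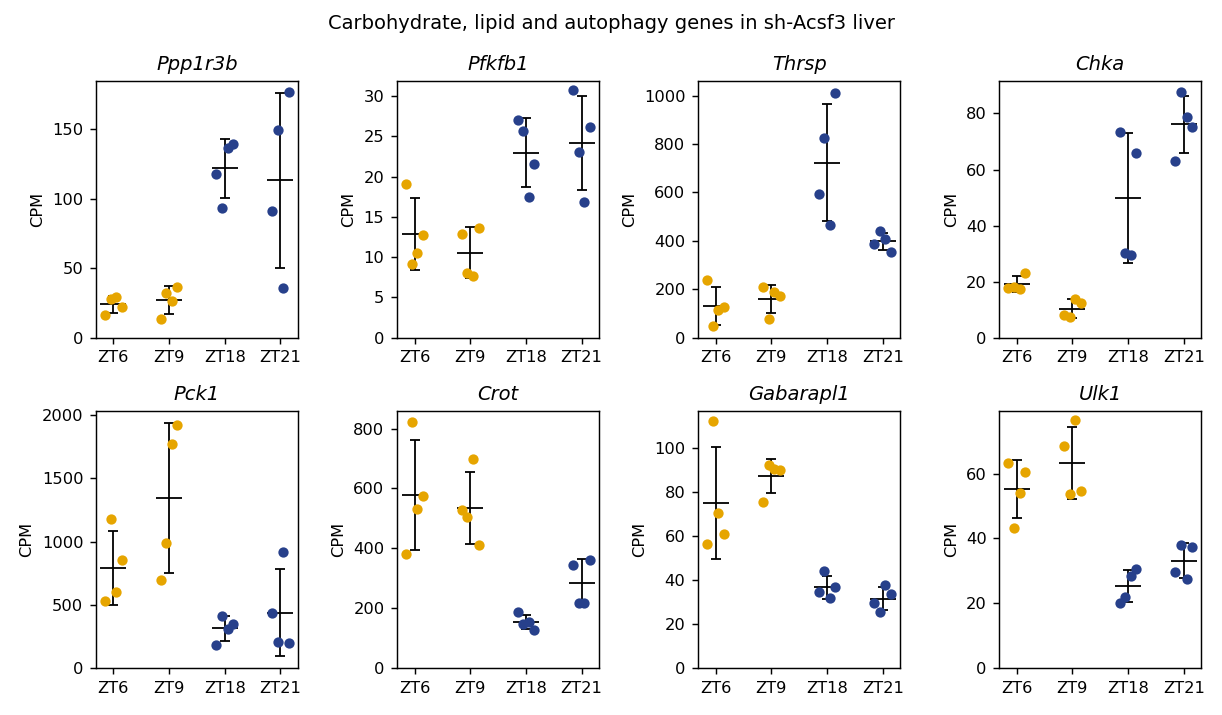
CPM of 8 genes of carbohydrate, lipid and autophagy function (one panel each, y axis in CPM from 0) in every sh-Acsf3 library at ZT6, ZT9 (yellow) and ZT18, ZT21 (blue), with bars for the mean ± SD of 4 libraries. Thrsp and Chka are separated upward and Crot, Gabarapl1 and Ulk1 downward, while for Ppp1r3b the library of ZT21 replicate 3 lies with late light and for Pck1 the windows overlap.

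Enzymes next to Acsf3 in function formed a list of their own. In this list of malonyl-CoA and mitochondrial fatty acid synthesis genes 12 of 14 were tested, with a median of -0.03. By edgeR 1 was higher (Acacb) and 0 lower, beside 3.51% and 3.52% of all genes. Acacb did not pass without the 2 libraries with pancreas RNA, which left 0 calls. Mlycd, the malonyl-CoA decarboxylase, differed by -0.30 ± 0.10 (adjusted p = 0.0658). Cbr4 and Lipt2, which act in mitochondrial fatty acid synthesis and lipoate transfer, differed by -0.27 ± 0.18 (adjusted p = 0.409) and 0.43 ± 0.21 (adjusted p = 0.227).

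Chaperone genes and their regulators were counted next. Of 26 heat shock and HSF1 target genes tested 12 were higher in late dark and none lower, with 22 of 26 above 0 and a median of 0.45. Of all 8738 genes tested 3.51% rose and 3.52% fell, and 4426 were above 0. With the 2 libraries with pancreas RNA left out 7 rose, with a median of 0.44, and with library size only 9 rose, with a median of 0.35. Hsph1 (ENSMUSG00000029657, chr5:149614287-149636376, minus strand), a nucleotide exchange factor for HSP70, had a lowest, median and highest value of 8.39, 8.88 and 12.9 CPM in late light and 14.5, 24.9 and 46.0 CPM in late dark. Its windows did not overlap, and it rose by 1.502 ± 0.16 (adjusted p = 8.19e-07). The means were 35.7 ± 11.8 CPM at ZT18 and 21.4 ± 5.11 at ZT21, below the 61.7 ± 10.3 CPM of ZT15 (SD, n = 4 each), so the windows catch the gene after its highest time. Stip1, the adaptor between HSP70 and HSP90, ran from 2.73 to 12.3 CPM in late light (median 7.68) and 7.76 to 20.2 CPM in late dark (median 15.1). Its late dark libraries ZT21 replicates 2 and 4 reached into late light, and it rose by 1.053 ± 0.18 (adjusted p = 0.000563). Fkbp4, an HSP90 co-chaperone of steroid receptors, rose by 0.70 ± 0.10 (adjusted p = 4.48e-05), and Dnaja1, an HSP40 co-chaperone, by 0.54 ± 0.10 (adjusted p = 0.00113). The other 8 are named after their values were seen. They were Hspb1 (1.11) and Hsp90aa1 (1.13), a small heat shock protein and the inducible HSP90, then Hspa4l (0.81), Hsp90ab1 (0.48), Cacybp (0.38), Hspa8 (0.38), Hspe1 (0.32) and the chaperonin subunit Cct3 (0.31).

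The heat shock element core GAANNTTC (N is any base; the motif is its own reverse complement) was in the windows of 11 of the 22 heat shock genes that had one (50.0%), against 9.04% of all genes with a window and 6.99% of tested genes. Among the genes called, 10.8% of those higher and 8.37% of those lower held it, and 0 of 23 windows of ER chaperone genes did. The list was drawn up from known targets of HSF1, which binds this element, so the share is a property of the list and not of these livers. The stretches of Hspb1 and Fkbp4, both higher in late dark, are shown with the core in capitals, as examples of a doubled and a single match picked after the matches were seen. Hspb1 is given from chr5:135887789-135887848 (plus strand) and Fkbp4 from chr6:128438777-128438846 (minus strand, where an exon of Gm10069 lies on the opposite strand), both from RefSeq GRCm38.p6, 5′ to 3′ along the gene.
Hspb1: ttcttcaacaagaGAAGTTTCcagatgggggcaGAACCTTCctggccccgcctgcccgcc
Fkbp4: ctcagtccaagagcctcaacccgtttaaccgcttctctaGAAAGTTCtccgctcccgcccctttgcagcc
The matches lie before the gene start in both.

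Chaperones of the endoplasmic reticulum rose in smaller number, 4 of 29, beside 3.51% of all genes, with none lower and a median of 0.13. Hspa5, the HSP70 of this compartment also called BiP, ran from 141 to 384 CPM in late light (median 221) and 218 to 849 CPM in late dark (median 414) and rose by 0.92 ± 0.18 (adjusted p = 0.00492). For Hspa5, 3 of the 4 ZT21 libraries lay within the late light range, and the highest was ZT18 replicate 2. Creld2, an oxidoreductase induced by unfolded proteins, rose by 1.13 ± 0.26, Manf, a secreted stress factor, by 0.77 ± 0.20, and Syvn1, the ubiquitin ligase of ER-associated degradation, by 0.90 ± 0.14, the last with no overlap of windows. Without the 2 libraries with pancreas RNA 2 genes of the list rose, with a median of 0.08. In the integrated stress response list Trib3, a pseudokinase gene, fell by 1.96 ± 0.35 (adjusted p = 0.00085). Cirbp, an RNA-binding protein gene that cold induces, fell by 1.20 ± 0.23 (adjusted p = 0.00144), from 6.37 to 12.9 CPM in late light (median 10.6) and 0 to 8.07 CPM in late dark (median 5.02).

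Genes that fell most outside the clock had varied functions. Clec2h, a C-type lectin gene, fell by 2.22 ± 0.41 (adjusted p = 0.00333), from 5.75 to 32.1 CPM in late light (median 14.5) and 1.27 to 9.85 CPM in late dark (median 3.19). Casp6, for an executioner caspase, stood at 12.9, 20.9 and 24.7 CPM in late light and 4.62, 6.38 and 9.42 CPM in late dark and fell by 1.65 ± 0.17 (adjusted p = 2.82e-07), and every late dark library lay below every late light one. Jade1, part of a histone acetyltransferase complex, was likewise separated, from 47.5 to 65.8 CPM in late light (median 51.5) and 13.1 to 28.1 CPM in late dark (median 22.7), and fell by 1.23 ± 0.11 (adjusted p = 3.6e-08). Klf10, a transcription factor gene, fell by 1.47 ± 0.27 (adjusted p = 0.00255). Gpcpd1, a glycerophosphocholine phosphodiesterase, fell by 1.42 ± 0.30, and Slc25a47, a mitochondrial carrier made in liver, by 1.24 ± 0.25. Fbxo21, an F-box protein gene, Hectd2os, an antisense transcript whose reads may not be separable from Hectd2, and Tns2, a tensin gene, fell by 1.30 ± 0.13, 1.29 ± 0.20 and 1.17 ± 0.12.

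Rises of like size outside metabolism were Tsku, a secreted liver protein of the leucine-rich family, with 1.51 ± 0.21 (adjusted p = 8.44e-05), H1f2, a linker histone gene, with 1.37 ± 0.17, and Lgalsl, a galectin-like gene, with 1.26 ± 0.19. Tsku had 5 late dark libraries inside the late light range, with ZT9 replicates 2 and 3 high. Egr1, an immediate early transcription factor gene, ran from 4.02 to 14.1 CPM in late light (median 7.50) and 4.61 to 54.5 CPM in late dark (median 17.4) and rose by 1.76 ± 0.44 (adjusted p = 0.0298), passing in 19 of 32 alternatives. Its highest value was in ZT21 replicate 3, and 7 late light libraries lay above the lowest late dark one.

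**Figure D3:**
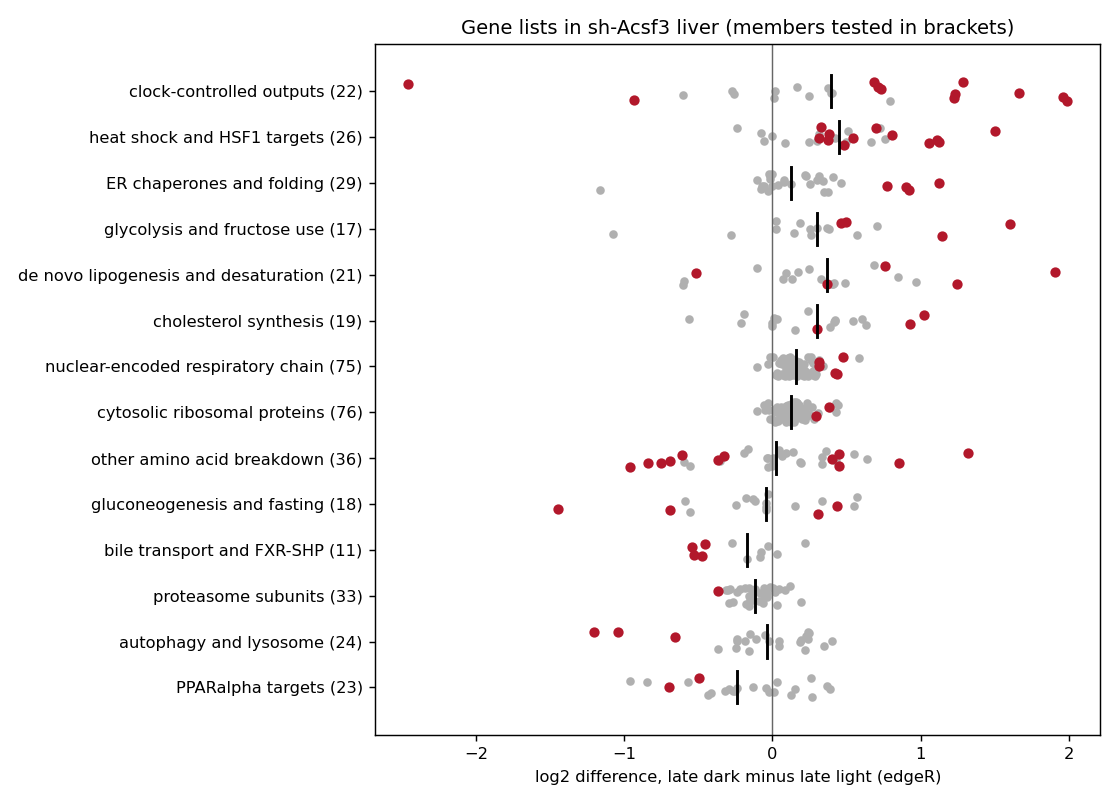
Log2 difference of late dark minus late light (x axis) for every tested member of 14 gene lists (rows) in sh-Acsf3, with red points for genes with an edgeR adjusted p under 0.05, grey points for the others and a black bar at the median. The heat shock list has 12 red points, all above 0, while the amino acid list has 5 above and 7 below (4 and 4 without the 2 libraries with pancreas RNA, which are included in the plot). Of all genes tested 3.51% rose and 3.52% fell.

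Autophagy and lysosome genes included 3 falls among 24 tested, beside 3.52% of all genes, with no rise and a median of -0.03. Gabarapl1, a protein of the ATG8 family on autophagosomes, stood at 56.3, 82.8 and 112 CPM in late light and 25.3, 33.9 and 43.9 CPM in late dark and fell by 1.20 ± 0.13 (adjusted p = 6.02e-07). Ulk1, the kinase that starts autophagy, stood at 43.3, 57.6 and 76.4 CPM in late light and 20.0, 29.0 and 38.0 CPM in late dark and fell by 1.04 ± 0.13 (adjusted p = 6.54e-06). For both genes all 8 late dark libraries were below all 8 of late light. The other fall was Npc1, given above, and 3 genes of the list were also lower without the libraries with pancreas RNA.

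In the list of bile transport and its regulators FXR and SHP, 4 of 11 genes tested fell and none rose, with a median of -0.17. Of all genes tested 3.51% rose and 3.52% fell. Without the 2 libraries with pancreas RNA 3 genes of the list fell. Abcb4, the phospholipid flippase of the canalicular membrane, ran from 135.0 to 202 CPM in late light (median 155) and 96.8 to 134.6 CPM in late dark (median 104), without overlap, and fell by 0.54 ± 0.10 (adjusted p = 0.000729). Slco1b2, which takes up organic anions from blood, fell by 0.53 ± 0.13, and the bile salt export pump Abcb11 by 0.46 ± 0.12. Abcc2, the conjugate export pump, fell by 0.48 ± 0.13 (adjusted p = 0.024), and its call ended without ZT21 replicate 2 (-0.46, adjusted p = 0.0511) or ZT9 replicate 2 (-0.42, adjusted p = 0.0566). Of 12 genes of bile acid synthesis Akr1d1, a steroid 5β-reductase, rose by 0.49 ± 0.11, while Amacr, a racemase of side chain oxidation, and Akr1c6, a hydroxysteroid dehydrogenase, fell by 0.45 ± 0.09 and 0.33 ± 0.09. Without the libraries with pancreas RNA 1 rose and 1 fell.

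Amino acid breakdown moved in both directions, with 5 rises and 7 falls among 36 tested, beside 3.51% and 3.52% of all genes. The median was 0.03, and without the 2 libraries with pancreas RNA the counts were 4 and 4. Acmsd, which steers tryptophan carbon away from NAD synthesis, rose by 1.32 ± 0.24 (adjusted p = 0.00176), and Prodh, the proline dehydrogenase, by 0.85 ± 0.11 (adjusted p = 6.54e-06). Amt, of the glycine cleavage system, and Cbs, of transsulfuration, fell by 0.96 ± 0.15 and 0.75 ± 0.12, each with no overlap of the windows. Amdhd1, of histidine breakdown, fell by 0.84 ± 0.12 (adjusted p = 7.39e-05), and Shmt1, the cytosolic serine hydroxymethyltransferase, rose by 0.45 ± 0.10. In the urea cycle Asl, argininosuccinate lyase, stood at 150.3, 191 and 236 CPM in late light and 303, 426 and 534 CPM in late dark and rose by 1.13 ± 0.12 (adjusted p = 6.26e-07), with every late dark library above every late light one. Nags, whose product makes the activator of carbamoyl phosphate synthetase, rose by 0.36 ± 0.11 (adjusted p = 0.0395), passing in 14 of 32 alternatives, and without the libraries with pancreas RNA 1 of the 12 urea cycle genes rose.

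Mitochondrial and ribosomal genes shifted by small amounts. Of all 8738 genes tested 4426 were above 0, and 3.51% rose and 3.52% fell by edgeR. Of 75 nuclear-encoded respiratory chain genes tested 72 were above 0, but only 5 passed, with a median of 0.16. Atp5g1, a c subunit gene of ATP synthase, rose by 0.48 ± 0.11 (adjusted p = 0.00886), and Ndufb10, of complex I, by 0.42 ± 0.11. Among 76 ribosomal protein genes 69 were above 0 and 2 passed, Rpl3 (0.38 ± 0.10) and Rps3a1 (0.30 ± 0.09), with a median of 0.13. The 7 tested genes of the mitochondrial genome were above 0 and 0 passed. With library size only the medians of the 3 lists were 0.065, 0.03 and 0.16, and 1, 0 and 0 genes passed, with the median of all genes at -0.0852 under this scaling. Without the 2 libraries with pancreas RNA none of the 3 lists had a call by edgeR. The 33 proteasome genes had 1 fall, Psma5 (-0.36 ± 0.11), 0 without the libraries with pancreas RNA and 4 with library size only, and a median of -0.12.

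Among secreted proteins of the liver, the fibrinogen chains Fga, Fgb and Fgg fell together by 0.41 ± 0.09, 0.39 ± 0.10 and 0.41 ± 0.10 (adjusted p = 0.0062, 0.0146 and 0.0149). Saa4, a constitutive serum amyloid gene, rose by 0.66 ± 0.12 (adjusted p = 0.00108). These were the calls among 25 acute phase genes, beside 3.51% of all genes that rose and 3.52% that fell. Without the libraries with pancreas RNA 1 rise and 1 fall were counted. The major urinary protein genes, which are nearly identical and can share reads, had 0 of 11 called by edgeR and a median of 0.17.

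Markers of liver cell types are counted beside the 3.51% of all genes that rose and the 3.52% that fell. Of 13 hepatocyte markers 1 fell (Fgb), with the sum of the list at 121091 to 156715 CPM in late light and 124653 to 155185 in late dark. Stellate and fibroblast markers had 1 of 15 higher (Bgn, 0.43 ± 0.13, passing in 9 of 32 alternatives), with sums of 496 to 789 and 476 to 740.1 CPM. Endothelial markers had 2 of 14 higher, Clec4g (0.41 ± 0.11) and Ptprb (0.30 ± 0.09, passing in 10 of 32 alternatives), with sums of 240.1 to 349.8 and 299.7 to 368 CPM. The Clec4g call ended without ZT21 replicate 1 (0.37, adjusted p = 0.0668) or ZT9 replicate 2 (0.36, adjusted p = 0.0523). Of 2 cholangiocyte markers tested Sox9 was higher (0.61 ± 0.18, passing in 14 of 32 alternatives). Leaving out the libraries with pancreas RNA, 0 hepatocyte, stellate and cholangiocyte markers passed by edgeR, and with library size only 0 stellate and endothelial ones did. None of 11 Kupffer cell, 6 lymphocyte, 3 neutrophil and 5 red cell markers passed in edgeR. The lymphocyte sums were 70.2 to 212 CPM in late light and 61.3 to 247 in late dark.

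Within each window the 2 times were compared in the same fit. ZT21 and ZT18 differed in 0 of 8738 genes (0%) by edgeR, with 523 at an unadjusted p under 0.05, 0 genes by limma-voom and 2 by DESeq2. The DESeq2 calls were Srebf1, the gene of the lipogenic factor SREBP1, with -0.805 (adjusted p = 0.0239), and Elovl3, an elongase gene, with 1.32 (adjusted p = 0.0239). In edgeR Srebf1 had -0.80 ± 0.16 (ZT21 minus ZT18) at an adjusted p of 0.218. ZT9 and ZT6 differed in 28 genes (0.32%), 19 higher and 9 lower at ZT9, and 710 had an unadjusted p under 0.05. The count rests on the replicates, with 9 genes without replicate 1 and 1 without replicate 2. Usp2, a deubiquitinase gene under clock control, rose from ZT6 to ZT9 by 2.91 ± 0.29 (adjusted p = 7.46e-05) and Wee1, a cell cycle kinase gene, by 2.19 ± 0.28 (adjusted p = 0.000144). In the clock Ciart rose by 3.82 ± 0.52, Dbp by 1.82 ± 0.29 and Per1 by 1.70 ± 0.36, while Arntl changed by -2.35 ± 0.40 over these 3 h. The mean of Arntl was 4.57 ± 1.41 CPM at ZT6 and 0.756 ± 0.531 at ZT9, and that of Ciart 1.48 ± 1.21 and 19.0 ± 15.1 (SD, n = 4 each). Of the 28 genes 11 also differed between late dark and late light.

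**Figure D4:**
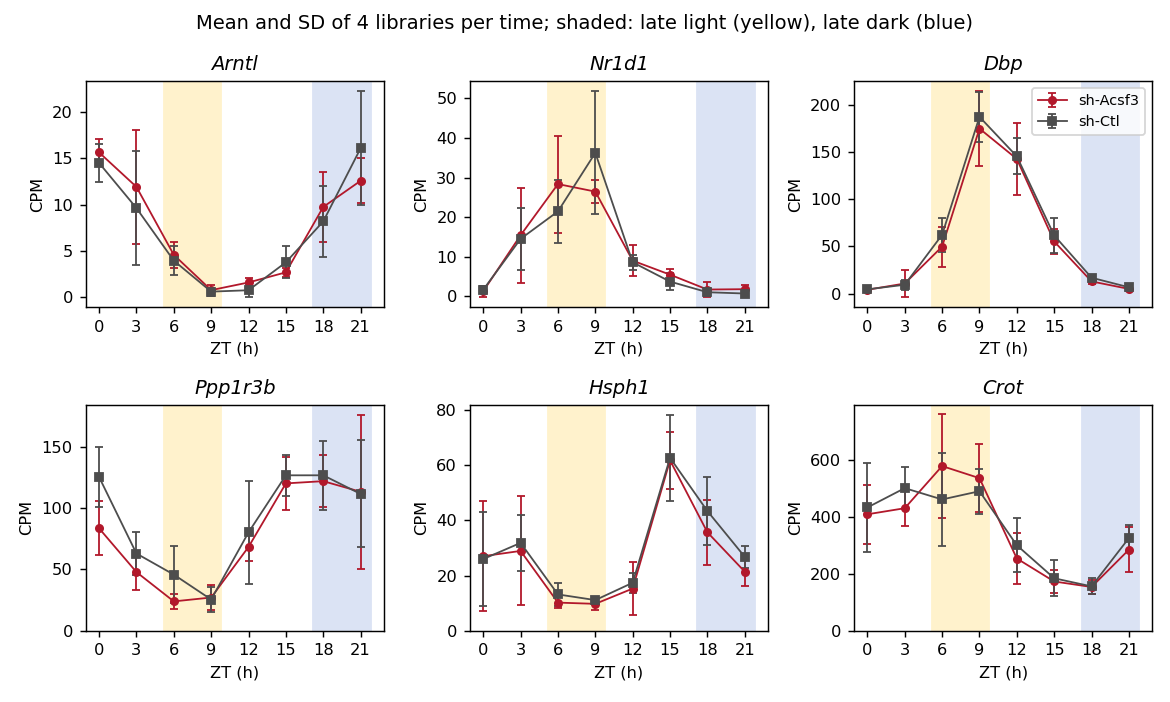
Mean CPM ± SD of 4 libraries (y axis) over 8 zeitgeber times in hours (x axis) for 6 genes, in sh-Acsf3 (red circles) and sh-Ctl (grey squares), with the late light and late dark windows shaded. Nr1d1 and Dbp are high at ZT9 and low at ZT18 and ZT21 in both treatments, and Hsph1 is highest at ZT15 in sh-Acsf3.

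The last comparison sets the knockdown beside the control livers, in one fit of 32 libraries and 9737 genes. In it 714 genes differed between the windows in sh-Acsf3 and 623 in sh-Ctl (6.4%, 324 higher and 299 lower). Both treatments passed for 312 genes, which is 43.7% of the sh-Acsf3 calls and 50.08% of the sh-Ctl calls, and 311 of them had one sign. Of the 714 genes 692 had the same sign in sh-Ctl, and of the 623 genes 599 had the same sign in sh-Acsf3. The test of the difference between treatments passed for 0 genes (0%) by edgeR, with 394 at an unadjusted p under 0.05, 0 by limma-voom and 1 by DESeq2. The gene called by DESeq2 was Yod1, a deubiquitinase gene, with -1.04 and an adjusted p of 0.0342. By edgeR Yod1 differed by -1.04 ± 0.20 (adjusted p = 0.0848), with -0.61 ± 0.15 in sh-Acsf3 and 0.43 ± 0.14 in sh-Ctl. Its means were 15.7 ± 4.98 and 14.4 ± 3.35 CPM at ZT18 and ZT21 in sh-Acsf3 and 24.6 ± 5.32 and 32.1 ± 5.88 CPM in sh-Ctl (SD, n = 4 each). With no filter on low counts, 78 of 21800 genes passed, and 12 of them were exocrine pancreas markers. Of the 78 genes, 61 were also in the filtered test, where none passed. The median of their mean CPM over the 32 libraries was 31.3 for all 78.

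For the clock the values of both treatments are set side by side from the joint fit, with the difference between treatments ± SE. Nr1d1 differed between windows by -4.38 in sh-Acsf3 and -5.11 in sh-Ctl, with a difference between treatments of 0.72 ± 0.79 (adjusted p = 1). Dbp had -3.58 and -3.35 (-0.22 ± 0.32), Cry1 2.41 and 2.51 (-0.10 ± 0.33), and Arntl 2.41 and 2.84 (-0.43 ± 0.46). For Nr1d2 the values were -2.11 and -1.605 (-0.50 ± 0.25, adjusted p = 1). None of these differences between treatments passed, and a p that misses the threshold does not show that the treatments were alike. Clock was 0.32 in sh-Acsf3 and 0.82 in sh-Ctl, where it passed (adjusted p = 0.00168), and its difference between treatments was -0.50 ± 0.24 (adjusted p = 1).

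The next genes were named from their calls in sh-Acsf3 and none had a call on the difference between treatments. The median ratio of sh-Ctl to sh-Acsf3 was 0.70 over the 714 genes, and that of sh-Acsf3 to sh-Ctl was 0.788 over the 623. Thrsp was 1.91 and 1.23 (0.67 ± 0.64), Pck1 -1.45 and -0.50 (-0.95 ± 0.58) and Egr1 1.75 and 0.14 (1.62 ± 0.82). For Ppp1r3b and Crot, called in both treatments, the values were 2.23 and 1.80 (0.43 ± 0.42) and -1.38 and -1.07 (-0.31 ± 0.23). The heat shock list had a median of 0.49 and 13 of 26 genes higher in sh-Ctl, and Hsph1 was 1.498 and 1.49. The PPARα target median was 0.04 in sh-Ctl (in sh-Acsf3 -0.24, or -0.14 without the libraries with pancreas RNA). The sh-Ctl medians of cholesterol synthesis and fat synthesis were -0.02 and 0.14, given side by side with no test of the lists. List values of sh-Ctl come from the joint fit and those of sh-Acsf3 from the fit of its own 16 libraries. For sh-Ctl, ZT9 replicate 1 and ZT18 replicate 2 were high in the acute phase gene Saa1 (3640 and 2257 CPM) and ZT6 replicate 3 held 849.5 CPM of pancreas markers.

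**Figure D5:**
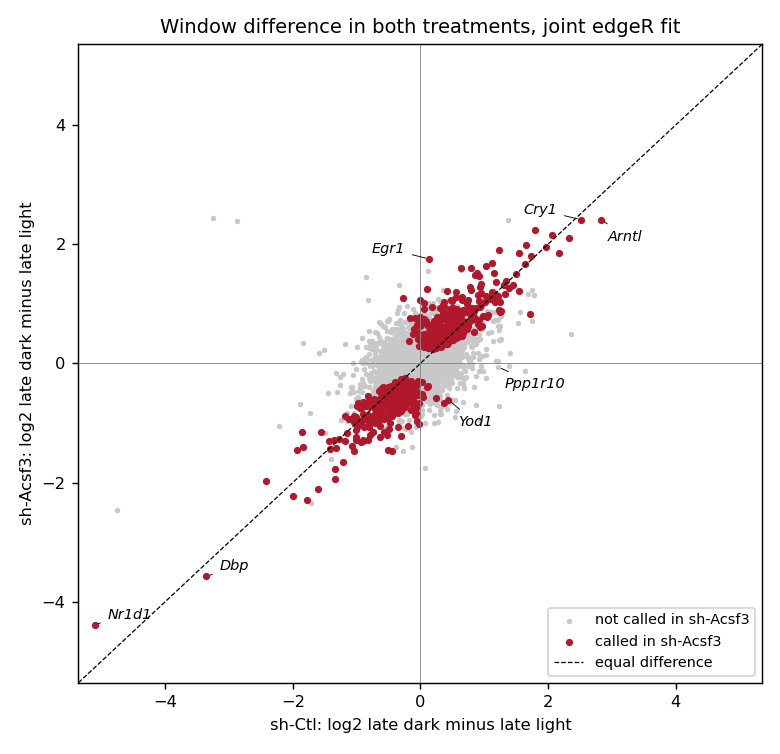
Log2 difference of late dark minus late light in sh-Ctl (x axis) and in sh-Acsf3 (y axis) for the 9737 genes of the joint fit, with genes called in sh-Acsf3 in red and the dashed line at equal differences. Of the 714 red genes 692 have the same sign in both treatments, and Yod1, Egr1 and Ppp1r10 lie off the line.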

How the data were processed

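Liver RNA was sequenced as 3′ tags. Per the submitters' processing notes the reads were aligned with STAR to GRCm38/mm10, with version and annotation not given in the sources used here, and the authors deposited raw UMI counts per gene (55487 genes, 64 libraries). All columns matched the labels by treatment, time and replicate.

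Counts of the 16 sh-Acsf3 libraries were fitted in R 4.3.3 with edgeR 4.0.16: filterByExpr (minimum count 10, total 15), TMM, robust quasi-likelihood, 4 time means without a replicate block (12 residual degrees of freedom, common coefficient of biological variation 0.173), and Benjamini-Hochberg adjustment over 8738 genes at 0.05. A joint fit of 32 libraries (8 group means, 24 degrees of freedom) gave the sh-Ctl values and the difference between treatments. Printed CPM use TMM over all 64 libraries. Replicates differed in each of 24 pairs by more than counting error. Totals of 0.839 to 8.01 M UMIs leave genes of a few CPM with few counts, and late dark with fewer.

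The 53 lists (963 of 1121 entries tested), the comparison and the tests were chosen with earlier results of these data known. Named genes were Acsf3, the clock lists, the 15 largest rises and falls among calls with a mean of 10 CPM or more (no Gm or Rik names), up to 4 members per list by p, the 8 smallest p for the difference between treatments and the 5 smallest p within each window. Alternatives were RLE factors, library size only, no gene filter, CPM of at least 5, DESeq2 1.42.0, limma-voom (limma 3.58.1), a replicate block, other fits, and libraries left out. Scripts were tested on simulated counts, where the share of false calls came out above the nominal level in the fit of 16. Positions are from GENCODE M21 and promoters from RefSeq GRCm38.p6. Figures used Python 3.11.15 and matplotlib 3.10.9. Results for some genes are not reported here. Members of near-identical families can share reads.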

Additional observations from a re-analysis of the deposited data

Results flagged for a closer look

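In windows of 8 sh-Acsf3 libraries, values were compared as log2 of CPM plus 0.5. A value was set aside for a closer look when its gap to the nearest other was over 0.526 of the whole range (Dixon's 95% limit for 8). The values printed below are CPM. Of 266 gene and window pairs checked, 12 met this, and chance alone flags about 1 in 20. ZT9 replicate 4 accounted for 4 of them: it was low in Slc45a3, at 0.682 CPM against 3.45 to 9.93 in the other late light libraries. It was high in Gpcpd1, at 137 CPM against 31.1 to 51.1, in Sds, at 110 against 47.9 to 64.7, and in the spermidine synthase gene Srm, at 25.2 against 6.61 to 12.5. Also in late light, ZT6 replicate 1 was low in Cpt1a (101 CPM, others 159 to 233) and high in Zfp330, a zinc finger gene (6.62 CPM, others 4.09 to 5.11), and ZT9 replicate 3 was high in Fbp1 (804 CPM, others 699 to 740).

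In late dark ZT21 replicate 3 was low in Ppp1r3b, at 35.7 CPM against 90.9 to 177, and in Tsc22d3, a glucocorticoid target, at 54.5 against 89.7 to 124. The library of ZT18 replicate 3 was low in Acacb, at 7.66 CPM against 19.6 to 41.2, and in Rora, at 29.6 against 66.0 to 90.4, and ZT18 replicate 1 was low in Scap, at 52.6 against 67.9 to 80.5.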

How the results depend on the processing

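Leaving out a replicate number or a single library gave 131 to 327 genes higher (307 with all) and 149 to 326 lower (308 with all). For the other comparisons single libraries were not left out in turn. There, leaving out a replicate number gave 1 to 31 for ZT9 minus ZT6 (28), 0 to 1 for ZT21 minus ZT18 (0) and 348 to 400 for sh-Ctl (623). Of the single libraries only ZT21 replicate 1 moved the higher or lower count over 1.5 times, to 204 higher. The single gene without replicate 3 was Elovl3. Library size only gave 163 higher and 492 lower, with 470 of 655 genes among the 615, and leaving out the libraries with pancreas RNA gave 177 and 198. For ZT21 minus ZT18 DESeq2 called 2 genes (Srebf1, Elovl3). The difference between treatments gave 78 genes without a gene filter (45 higher and 33 lower in sh-Acsf3), 1 by DESeq2 and 1 without the sh-Ctl libraries high in Saa1, both times Yod1. Fits with a replicate or library left out have fewer samples, and otherwise the cause was not tested. Tef, which did not pass (-0.22), ran from -0.43 without replicate 3 to 0.041 without replicate 4.

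RLE factors, DESeq2, limma-voom, no filter, CPM of at least 5, 2 windows without a mean per time and fits on 32 or 64 libraries gave 281 to 406 higher and 283 to 415 lower.

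A replicate block gave 381 higher and 372 lower (599 of the 615 among them), 38 for ZT9 minus ZT6, 0 for the difference between treatments, and 2 for ZT21 minus ZT18 (Srebf1 and Camk1d). Same-numbered libraries correlated at -0.13 to 0.284 in their deviations, and libraries of different number and time at -0.275 to 0.192. Of 16 libraries 8 correlated best with their own number. Whether the numbers pair the samples was not tested further. Of the 117 named calls 1 ended with the replicate block and 25 with library size only. Without the libraries with pancreas RNA 33 ended, and 60 ended without at least 1 replicate number. Depth limits genes of a few CPM, such as Acsf3.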

Other observations

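Several further gene lists were counted in the same comparison. Of all genes tested 3.51% rose and 3.52% fell, and the counts of these lists stand beside those shares. Of 15 glucocorticoid targets and metallothioneins tested, 3 rose and 2 fell in late dark (3 and 1 without the libraries with pancreas RNA). Tsc22d3, which encodes GILZ, ran from 24.6 to 60.0 CPM in late light (median 43.8) and 54.5 to 124 CPM in late dark (median 99.8) and rose by 1.20 ± 0.14 (edgeR adjusted p = 6.54e-06). Dusp1, a phosphatase of MAP kinases, rose by 0.84 ± 0.16 and Klf9, a transcription factor gene, fell by 0.66 ± 0.13. In polyamine and one-carbon genes 3 of 12 rose and 2 fell (3 and 0 without the libraries with pancreas RNA). Odc1, the ornithine decarboxylase that starts polyamine synthesis, rose by 1.13 ± 0.18 (adjusted p = 0.000157), and Srm by 0.91 ± 0.19, while Oaz1, the antizyme that inhibits ODC, fell by 0.32 ± 0.09 (adjusted p = 0.0293).

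Of 30 xenobiotic genes 3 rose and none fell by edgeR, namely Cyp2a5, the carboxylesterase Ces1d (0.89 ± 0.20) and the glutathione transferase Gsta3 (0.51 ± 0.09). None of 15 NRF2 and glutathione genes, 19 apolipoprotein genes or 21 genes of insulin and growth hormone signalling passed by edgeR. In ribosome biogenesis 2 of 37 rose, Nolc1 (0.81 ± 0.21) and Nop16 (0.59 ± 0.17), with 1 rise without the libraries with pancreas RNA and 0 with library size only by edgeR. Nop16 passed in 16 of 32 alternatives, Oaz1 in 24, and Nolc1 in 26, ending without ZT21 replicate 4 (0.60, adjusted p = 0.0793). In the secretory pathway 1 of 37 rose, beside 3.51% of all genes tested, and 2 without the libraries with pancreas RNA. The 1 gene was Ostc (0.49 ± 0.10), a subunit of oligosaccharyltransferase.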
